A study of Homo sapiens with 44 samples.

Results

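CNN2, GTF2E2, COPS2, CUL4A, NCK2, PDS5A, EIF4G2, SMC1A and MED21 are 9 genes whose transcripts were lowered much more by one short hairpin RNA against GSK3A than by the other hairpin against the same gene. They were chosen from measured values of these arrays for that difference, out of 12165 genes with a probe set of their own. The choice had no numeric threshold. The levels with the GSK3A hairpins are therefore a description and carry no test. The 9 genes hold 19 of the 19724 probe sets that name a single gene. Hairpin 5 lowered 7 of them more (CNN2, GTF2E2, COPS2, CUL4A, NCK2, PDS5A and EIF4G2), and hairpin 6 lowered SMC1A and MED21 more.

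The arrays compared 4 established human acute myeloid leukemia lines: HL-60, a promyelocytic line, and THP-1, MOLM-14 and U937, which are monocytic. In each line there were 2 arrays with GSK3A hairpin 5, 2 with GSK3A hairpin 6, 2 with GSK3B hairpin 1, 2 with GSK3B hairpin 2 and 3 with a scrambled control hairpin, which gives 44 arrays in 20 groups. Every group, the control included, was infected with a hairpin construct and put on puromycin at 1 µg/mL 48 h after infection, and RNA was taken 48 h later, so all levels are from infected and selected cells. As far as the study is known, it asked whether loss of either form of glycogen synthase kinase 3 moves leukemia cells toward differentiation. Per the labels the replicates were biological, with nothing more on separate cultures or infections, so p-values may measure only the spread between these arrays.

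In RNA interference a hairpin is cut to a short double strand, and its guide strand steers an Argonaute protein to transcripts that pair with it. Several hairpins per target are commonly used, because a guide strand can also lower other transcripts that match the short stretch near its start. Effects of the target are then looked for in what the hairpins share. Why the 9 genes differ between the GSK3A hairpins was not tested. The sequences of the hairpins were not analysed here, so no match between a hairpin and any of the 9 transcripts was tested.

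The 9 proteins work in several basic machines of the cell. GTF2E2 is the beta subunit of the general transcription factor TFIIE, and MED21 is a subunit of Mediator, which links transcription factors to RNA polymerase II. SMC1A is a core ATPase subunit of cohesin, the ring that holds sister chromatids together, and PDS5A binds cohesin and regulates it. CUL4A is the scaffold of a cullin-RING ubiquitin ligase, and COPS2 is a subunit of the COP9 signalosome, which takes the ubiquitin-like protein NEDD8 off cullins. EIF4G2 is a relative of the translation initiation factor EIF4G1. CNN2 is a calponin, which binds actin, and NCK2 is an adaptor that ties activated receptors to the actin cytoskeleton.

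Promoters of 7 of the 9 genes were matched by symbol in RefSeq's table, each with 250 bases before and 50 after the start (all but GTF2E2 and MED21). They were searched on both strands for 4 short motifs, none of which contains another. The CCAAT box, spelled CCAAT, stood in 5 of the 7 (CNN2, COPS2, NCK2, PDS5A and EIF4G2) and in 39.7% of the promoters of 27305 genes. The GC box, spelled GGGCGG, stood in 5 of the 7 and in 48.3% of all. The ETS motif CCGGAAG stood in 2 of the 7 and in 12.2% of all, and the TATA box TATAAA in 0 of the 7 and in 14% of all. Such matches describe letters in a window and are not evidence of binding. The promoter of CNN2, the gene with the largest fall, holds the CCAAT box 1 time, and that of NCK2, the gene that moved in opposite directions with the hairpins, holds it 6 times. Both are shown on the plus strand of build GRCh38.p14, CNN2 at chr19:1026358-1026657 and NCK2 at chr2:105851597-105851896, and capitals mark CCAAT on either strand.
CNN2: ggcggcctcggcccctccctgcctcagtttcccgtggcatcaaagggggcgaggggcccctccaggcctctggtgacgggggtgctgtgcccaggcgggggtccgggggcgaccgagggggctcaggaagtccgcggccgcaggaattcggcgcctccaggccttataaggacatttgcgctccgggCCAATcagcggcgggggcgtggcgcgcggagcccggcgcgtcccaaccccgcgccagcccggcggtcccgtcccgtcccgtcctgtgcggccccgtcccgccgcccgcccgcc
NCK2: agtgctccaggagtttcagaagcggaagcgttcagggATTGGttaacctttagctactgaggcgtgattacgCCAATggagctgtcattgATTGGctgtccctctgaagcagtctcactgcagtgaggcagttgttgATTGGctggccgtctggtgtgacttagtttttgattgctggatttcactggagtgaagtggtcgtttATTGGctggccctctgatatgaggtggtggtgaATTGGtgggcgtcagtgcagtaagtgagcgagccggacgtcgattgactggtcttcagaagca

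The targeted transcripts were examined first. GSK3B had deposited intensities of 27.5 to 97.7 over the 8 arrays with GSK3B hairpin 1 and 22.4 to 80.4 over the 8 with GSK3B hairpin 2, against 140 to 204 over the 12 control arrays. Each GSK3B hairpin array lay below every control array of its line, and the smallest knockdown was in THP-1, at 51.6% and 41.8% of control with hairpins 1 and 2. GSK3A was dim, with 37.8 to 46.7 with hairpin 5 and 31.3 to 46.7 with hairpin 6, against 32.3 to 57.8 in the controls. Its log2 change was −0.07 ± 0.03 with hairpin 5 (limma, adjusted p = 0.112) and −0.10 ± 0.03 with hairpin 6 (adjusted p = 0.0252). The arrays thus show little knockdown of the GSK3A transcript, and per the labels the protein was examined by western blot, which is not part of these data. Of 8 myeloid markers measured of 10 listed, CEBPA, ITGB2, TYROBP and PTPRC had medians over 100, SPI1 and CD68 were dim at 22.2 and 16.1, and MPO was bright in HL-60. The summed myeloid markers ran from 3960 to 9589 with hairpin 5, 3868 to 9355 with hairpin 6 and 3347 to 10010 in controls. All 5 erythroid and all 4 B-cell markers measured had medians of 13.98 or less. NKG7 (median 185) was the only T and NK cell marker of 7 over 100, and PECAM1 (498) the only epithelial and stromal marker of 8.

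Changes below are on the log2 scale of intensity plus 16, averaged over the 4 lines, and ± gives the standard error of a limma fit of all 20 group means unless SD is written. The pseudocount of 16 makes changes of dim genes smaller than those in intensity. In bulk RNA, a lower transcript level per cell and fewer cells that carry the transcript cannot be told apart. Over all genes, 22.1% passed the test with hairpin 5 and 16.7% with hairpin 6 (adjusted p under 0.05), and 10.6% and 7.88% passed as lower.

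CNN2, which stabilizes actin filaments, had the largest fall with hairpin 5 of all 12165 genes. In HL-60 its deposited intensity was 66.6 and 62.1 with hairpin 5 and 218 and 214 with hairpin 6, against 237, 218 and 239 in control cells. In MOLM-14 it was 53.4 and 50.6 with hairpin 5 and 179 and 198 with hairpin 6, against 196, 206 and 217. In U937 it was 46.2 and 49.99 with hairpin 5 and 189 and 191 with hairpin 6, against 184, 201 and 189. THP-1 kept more. With hairpin 5 the other lines lay between 46.2 and 66.6, while THP-1 gave 116 and 122 with hairpin 5 and 259 and 218 with hairpin 6, against 249, 275 and 266. The hairpin 5 arrays of each line lay well below its control arrays with no overlap, and their mean was 25.1% of control in U937 and 45.3% in THP-1. The log2 change was −1.53 ± 0.04 with hairpin 5 and −0.09 ± 0.04 with hairpin 6. CNN2 also had the most negative hairpin 5 minus hairpin 6 difference of all genes, at −1.44 ± 0.05.

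Among the nuclear proteins, GTF2E2, which recruits and stimulates TFIIH at the promoter, fell deepest in HL-60. It measured 99.6 and 101 with hairpin 5 and 211 and 225 with hairpin 6, against 281, 280 and 284 in HL-60 control cells. In the other lines hairpin 5 gave 55.5% to 62.0% of control, and its 8 arrays ran from 99.6 to 152 with a median of 123, against 168 to 284 with a median of 248 in the 12 controls. The log2 change was −0.88 ± 0.04 with hairpin 5 and −0.20 ± 0.04 with hairpin 6. The HL-60 change of −1.36 ± 0.08 stood apart from −0.65 to −0.76 in the other lines. PDS5A, which with WAPL regulates the release of cohesin, had 229 and 246 with hairpin 5 in MOLM-14 and 430 and 437 with hairpin 6, against 463, 473 and 446 in controls. Hairpin 5 gave 51.6% of control there and 63.7% to 73.1% in the other lines, a mean log2 change of −0.62 ± 0.03. With hairpin 6 PDS5A differed by 0.05 ± 0.03, and in HL-60 it was above control at 662 and 621, against 556, 575 and 572.

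In the cullin pathway, CUL4A had a log2 change of −0.71 ± 0.04 with hairpin 5 and −0.18 ± 0.04 with hairpin 6. In HL-60 it measured 180 and 182 with hairpin 5 and 293 and 279.7 with hairpin 6, against 357, 376 and 379 in controls. The hairpin 6 arrays of HL-60 thus lay between those of hairpin 5 and the controls, at 77.2% of control, while the other lines were at 89.6% to 91.6%. COPS2, an early-assembling part of the signalosome, changed by −0.69 ± 0.04 with hairpin 5 and −0.08 ± 0.04 with hairpin 6. In HL-60 it measured 343 and 332 with hairpin 5 and 595 and 596 with hairpin 6, against 632, 676 and 639 in controls. Hairpin 5 left 52.0% of control in HL-60 and 62.6% to 69.9% in the other lines.

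EIF4G2, which serves initiation without the usual cap-binding protein, was the brightest of the 9. In HL-60 it had 1621 and 1604 with hairpin 5 and 2537 and 2775 with hairpin 6, against 2914, 2957 and 2898 in controls. Its 8 hairpin 5 arrays ran from 1131 to 1947, against 1907 to 2957 in the 12 controls, and within each line they did not overlap. The log2 change was −0.78 ± 0.07 with hairpin 5 and −0.21 ± 0.07 with hairpin 6, and its replicates spread most of the 9 genes (SD of 0.14 within groups, on the log2 scale, with 24 degrees of freedom).

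NCK2 had opposite signs with the 2 hairpins. In MOLM-14 it measured 149 and 169 with hairpin 5 and 361 and 318 with hairpin 6, against 275, 279 and 255 in controls. In U937 it measured 217 and 222 with hairpin 5 and 451 and 452 with hairpin 6, against 366, 357 and 392. In both lines, and in HL-60, hairpin 5 lay below and hairpin 6 above every control array. THP-1 was the exception with hairpin 6, at 669 and 684, against 738, 690 and 698. The log2 change was −0.68 ± 0.03 with hairpin 5 and 0.17 ± 0.03 with hairpin 6.

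SMC1A and MED21 were the genes lowered more by hairpin 6. SMC1A had 557 and 605 with hairpin 6 and 1085 and 1075 with hairpin 5 in HL-60, against 1015, 1023 and 1002 in controls. In MOLM-14 it had 325 and 315 with hairpin 6 and 388 and 483 with hairpin 5, against 761, 801 and 826. MOLM-14 was the only line of the 4 in which hairpin 5 also lay below every control array, at 54.7% of control, whereas hairpin 5 left 96.0% to 107% in the others. The log2 change was −0.92 ± 0.05 with hairpin 6 and −0.20 ± 0.05 with hairpin 5, and the hairpin 5 value without MOLM-14 was 0.02. MED21, a small subunit of the middle part of Mediator, had rank 3 of all genes by its fall with hairpin 6. Its 8 arrays with hairpin 6 ran from 32.6 to 122 with a median of 78.9, against 94.4 to 208 (median 161) with hairpin 5 and 96.05 to 215 (median 164) in the controls. MED21 changed by −1.03 ± 0.06 with hairpin 6 and −0.03 ± 0.06 with hairpin 5.

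**Figure D1:**
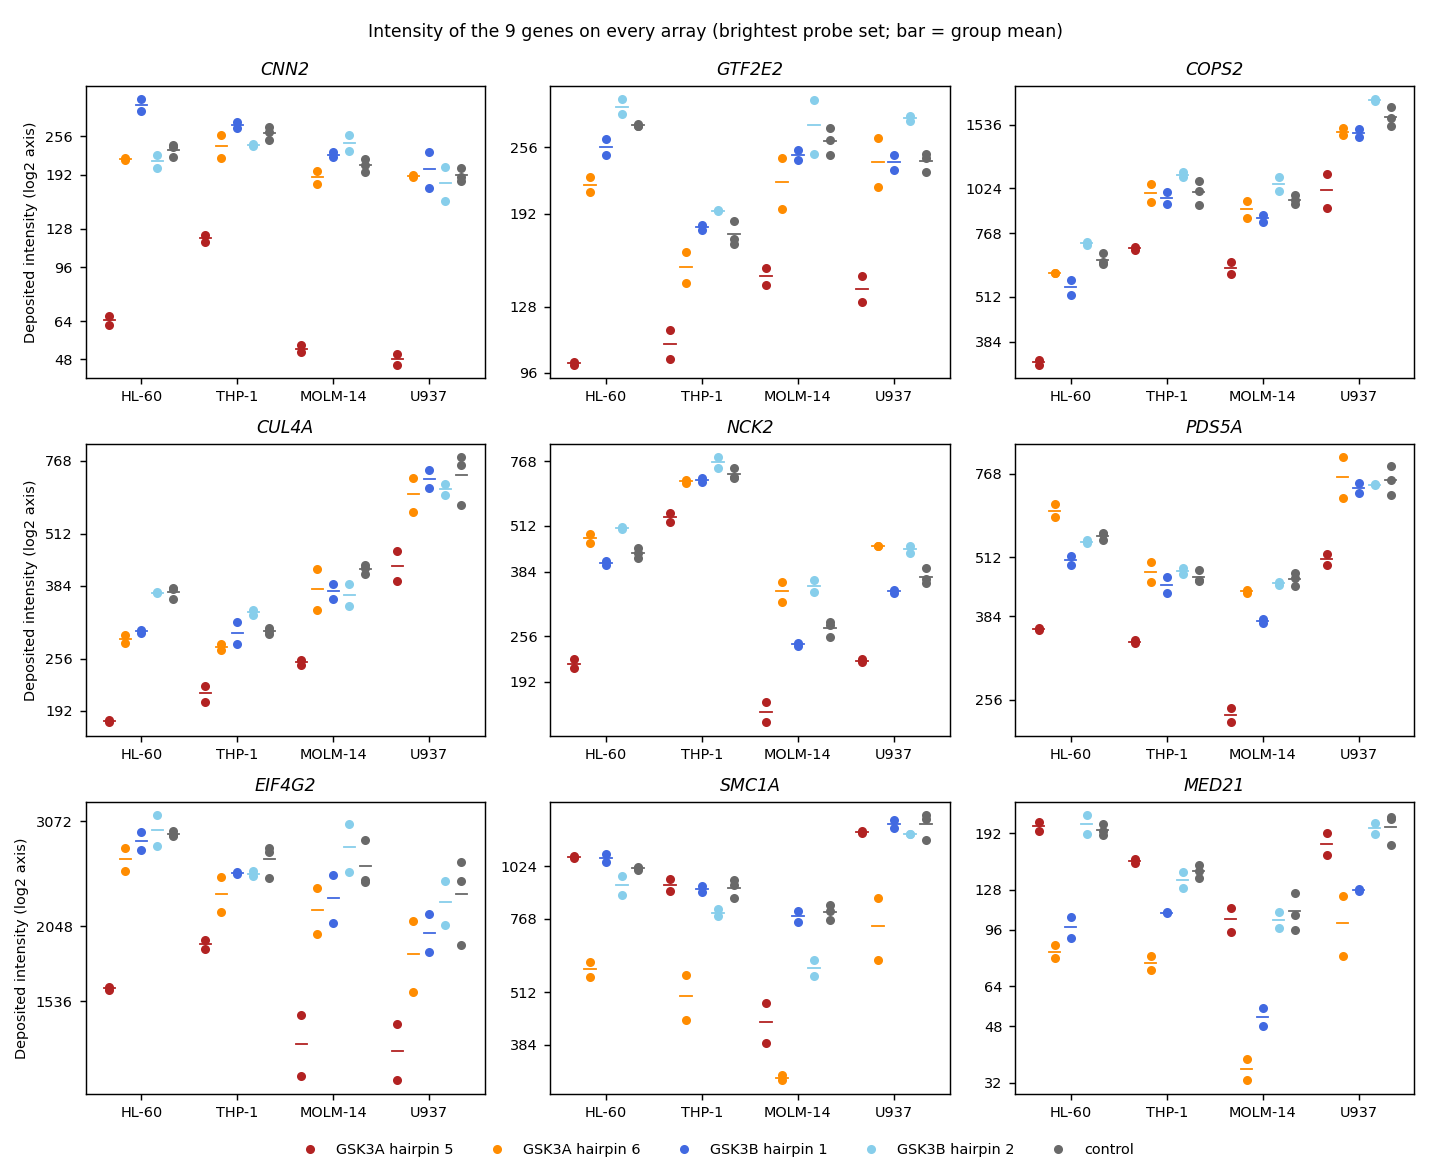
Deposited intensity (log2 axis) of the 9 genes on each of the 44 arrays, by cell line, with a dot per array and a bar per group mean. With GSK3A hairpin 5 (red) the CNN2 arrays lie between 46.2 and 122, and MED21 is low with GSK3A hairpin 6 (orange) and with GSK3B hairpin 1 (dark blue) in every line.

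By count, each of the 7 genes had both hairpin 5 arrays below every control array of the line in 4 of 4 lines, and SMC1A and MED21 had the same with hairpin 6. That pattern was met by 1.98% of all genes with hairpin 5 and by 1.94% with hairpin 6. The choice of the genes fixed these counts, so nothing is read from them. With hairpin 6 the mean change was a smaller fall for GTF2E2, COPS2, CUL4A, EIF4G2 and CNN2. It was above 0 for NCK2 (0.17) and PDS5A (0.05). GTF2E2 lay below every control array with hairpin 6 in 3 lines, and COPS2, CUL4A and EIF4G2 in 2. CNN2, NCK2 and PDS5A did so in 1. The share of all genes with that pattern in fewer than 4 lines was not counted, so nothing is read from these counts either. The 9 genes were not the only ones with a large difference between the hairpins. By the same difference of hairpin 5 minus hairpin 6, EFR3A (−1.12), FOXN3 (−1.11), SEL1L3 (−1.05), CDC42 (−1.04) and NEFH (−1.01) were the most negative of the genes outside the 9, and TREM1 (1.32), PCYOX1L (1.28), HMOX1 (1.19, adjusted p = 0.101), IDS (1.17) and CX3CR1 (1.17) the most positive. TREM1, IDS and CX3CR1 were raised by hairpin 5 rather than lowered by hairpin 6. PCYOX1L (0.81 with hairpin 5 and −0.47 with hairpin 6) and HMOX1 (0.87 and −0.32) also rose more with hairpin 5 than they fell with hairpin 6. Within the 9 the difference ran from −1.44 to −0.52 for the 7 genes and was 0.72 for SMC1A and 1.01 for MED21, at ranks 1 (CNN2) to 98 (CUL4A) from one end and 59 and 14 from the other.

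**Figure D2:**
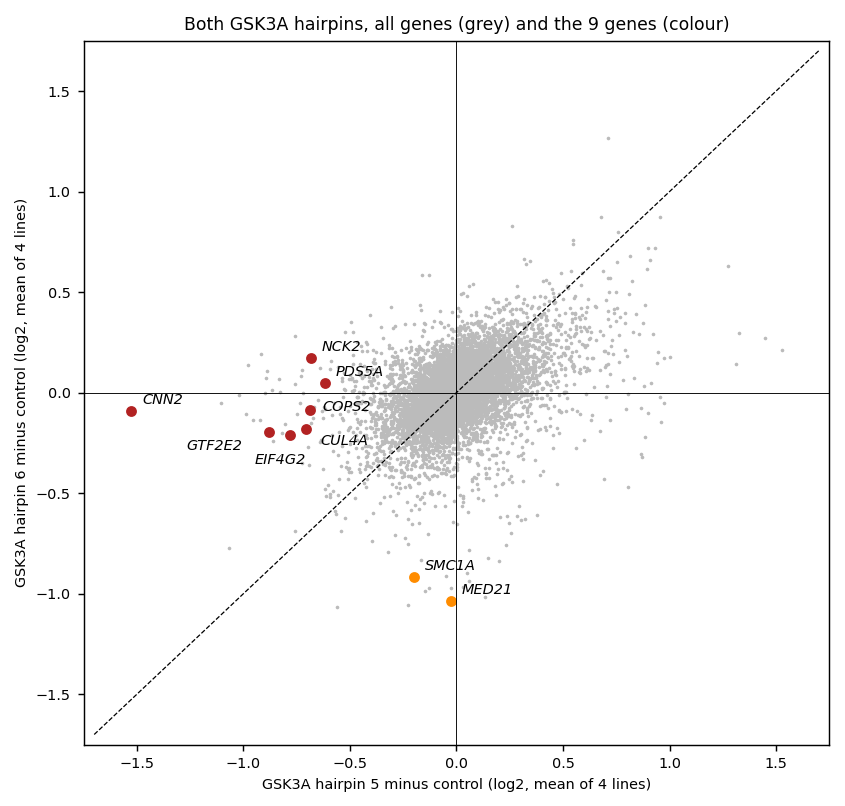
Log2 change with GSK3A hairpin 5 (x axis) and GSK3A hairpin 6 (y axis) against the control hairpin, mean of 4 lines, for 12165 genes (grey) and the 9 genes (red, lowered more by hairpin 5; orange, lowered more by hairpin 6). CNN2 lies farthest left at −1.53, and MED21 lies lowest of the 9 at −1.03; both axes share the control arrays.

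The GSK3B hairpin arrays were not used to choose the genes and allow a test, although comparisons with the control share its 12 arrays with the GSK3A values above. MED21 fell with GSK3B hairpin 1. In HL-60 it measured 90.3 and 105 with GSK3B hairpin 1 and 191 and 218 with GSK3B hairpin 2, against 205, 189 and 195 in controls. In THP-1 it measured 109 and 108 with hairpin 1 and 145 and 129 with hairpin 2, against 153, 146 and 139. In MOLM-14 it measured 48.2 and 54.7 with hairpin 1 and 109 and 96.9 with hairpin 2, against 107, 125 and 96.05. In U937 it measured 129 and 127 with hairpin 1 and 206 and 191 with hairpin 2, against 215, 212 and 176. All 8 arrays of GSK3B hairpin 1 lay below every control array of their line, a pattern in all 4 lines that 0.493% of genes had with this hairpin and 1.01% with GSK3B hairpin 2. The log2 change was −0.70 ± 0.06 with GSK3B hairpin 1 (limma, adjusted p = 5.3e-09) and −0.03 ± 0.06 with GSK3B hairpin 2 (adjusted p = 0.867, 95% interval −0.15 to 0.09).

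The difference between the GSK3B hairpins uses no control array and no GSK3A array. For MED21 it was 0.66 ± 0.06 (hairpin 2 minus hairpin 1, limma, adjusted p = 1.5e-08, 95% interval 0.53 to 0.79). Within plate columns 1 to 6 MED21 changed by −0.78 with GSK3B hairpin 1, and within plate columns 7 to 11, with 1 array a group, by −0.56. The dimmer of the 2 MED21 probe sets gave −0.61 with GSK3B hairpin 1 (adjusted p = 0.000161 over all probe sets) and 0.03 with GSK3B hairpin 2. It also gave −0.68 with GSK3A hairpin 6 and −0.03 with GSK3A hairpin 5. MED21 was thus low with 1 hairpin of each target and near control with the other of each, on both probe sets. With GSK3B hairpin 1, the THP-1 level stayed nearest to control, at 74.4% on the brighter probe set, against 47.0% to 63.6% in the other lines. On the dimmer probe set THP-1 was at 84.8% and overlapped its control arrays, and both arrays lay below every control array in 3 lines.

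Of the 9 genes, 4 fell and 1 rose with GSK3B hairpin 1, where 4.64% of all genes passed the test. With GSK3B hairpin 2, 3 rose and 1 fell, where 6.27% passed. Between the GSK3B hairpins (hairpin 2 minus hairpin 1) 5 were higher and 2 lower, where 11% passed. Apart from MED21, the changes were small. NCK2 rose with GSK3B hairpin 2 by 0.24 ± 0.03 (limma, adjusted p = 6.2e-07), for example to 338 and 365 in MOLM-14 against 275, 279 and 255. On their brightest probe sets, NCK2 and COPS2 lay above every control array of the line in all 4 lines with this hairpin. The dimmer COPS2 probe set went the other way with GSK3B hairpin 2, below every control array of the line in all 4 lines. The share of all genes above every control array in all 4 lines was not counted, so nothing is read from these counts. NCK2 fell with GSK3B hairpin 1 by 0.10 ± 0.03 on the log2 scale (adjusted p = 0.0361), and the hairpins differed by 0.34 ± 0.03 (adjusted p = 4.9e-09). COPS2 fell by 0.15 ± 0.04 on the log2 scale with GSK3B hairpin 1 (adjusted p = 0.0163) and rose by 0.17 ± 0.04 with GSK3B hairpin 2 (adjusted p = 0.0052). GTF2E2 rose by 0.15 ± 0.04 with GSK3B hairpin 2 (adjusted p = 0.0307), PDS5A fell by 0.14 ± 0.03 on the log2 scale with GSK3B hairpin 1 (adjusted p = 0.00306), and CNN2 rose by 0.17 ± 0.04 with GSK3B hairpin 1 (adjusted p = 0.028).

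The CNN2 rise came mostly from HL-60, where GSK3B hairpin 1 gave 338 and 309, against 237, 218 and 239 in controls, and without HL-60 it was 0.08 (adjusted p = 0.814). It was 0.25 within plate columns 1 to 6 and 0.06 within columns 7 to 11. SMC1A fell by 0.20 ± 0.05 on the log2 scale with GSK3B hairpin 2 (adjusted p = 0.00808), with 560 and 613 in MOLM-14 against 761, 801 and 826, and without MOLM-14 the value was −0.13 (adjusted p = 0.219). CUL4A and EIF4G2 passed neither GSK3B test against the control in the fit without a block. CUL4A changed by −0.12 (95% interval −0.21 to −0.03) with GSK3B hairpin 1 and by −0.03 (−0.12 to 0.06) with hairpin 2, and EIF4G2 by −0.12 (−0.25 to 0.02) and 0.03 (−0.11 to 0.16). With plate columns as a block, both passed with GSK3B hairpin 1, EIF4G2 at −0.12 (limma, adjusted p = 0.00496) and CUL4A at −0.11 (adjusted p = 0.0429). Both also passed in plate columns 1 to 6 alone (adjusted p = 0.0116 for EIF4G2 and 0.0436 for CUL4A) and not in columns 7 to 11 (0.981 and 0.979), and CUL4A passed without U937 (0.0219). The COPS2 direction with GSK3B hairpin 2 rested on the brighter probe set: the dimmer one, at a mean intensity of 50.3, gave −0.34 (adjusted p = 5.65e-05 over all probe sets). Each of the small calls of CNN2, GTF2E2, COPS2, NCK2, PDS5A and SMC1A with a GSK3B hairpin against the control was lost in at least one alternative, while the MED21 call with GSK3B hairpin 1 held in all 16.

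**Figure D3:**
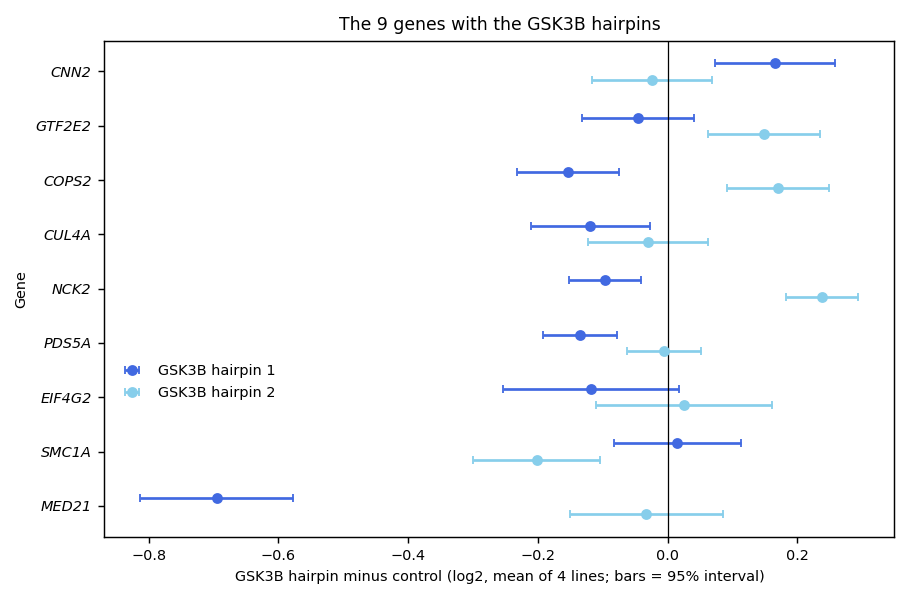
Log2 change with GSK3B hairpin 1 (dark blue) and GSK3B hairpin 2 (light blue) against the control hairpin for the 9 genes, mean of 4 lines, with 95% intervals of the limma fit. MED21 with hairpin 1 stands at −0.70, and the other points lie between −0.20 and 0.24.

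By line, THP-1 had the smallest fall with hairpin 5 for 7 of the 7 genes, and for 50.9% of the 1290 genes that passed as lower with hairpin 5. The gap to the next line was beyond 2 standard errors for CNN2 and NCK2 and within them for the other 5, and nothing is read from the shares, since this change chose the genes. The largest fall was in HL-60 for GTF2E2, COPS2, CUL4A and NCK2 and in MOLM-14 for PDS5A, each beyond 2 standard errors of the gap to the next line. For COPS2 that gap was 0.23 with a standard error of 0.11. These gaps are a description and no test, since the lines were picked as extremes and these values chose the genes. CNN2 fell alike in MOLM-14 (−1.73 ± 0.09) and U937 (−1.69 ± 0.09), and the order of these lines was not resolved for EIF4G2 either (−0.94 ± 0.13 and −0.88 ± 0.13). With hairpin 6, SMC1A fell most in MOLM-14 (−1.25 ± 0.10), with −0.77 to −0.86 in the other lines. MED21 had −1.33 ± 0.11 in MOLM-14 and −1.09 ± 0.11 in HL-60, a gap within 2 standard errors, and −0.83 in THP-1. GSK3B itself was also lowered least in THP-1 by its own hairpins, and the part of infection or knockdown strength in the THP-1 values was not tested.

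Over all genes, the change differed between lines for 9.06% with hairpin 5 and for 3.13% with hairpin 6 (limma's moderated F-test). These changes chose the 9 genes, so their own differences between lines are values without a test. In NCK2 the hairpin 5 change ran from −0.94 ± 0.05 in HL-60 to −0.37 ± 0.05 in THP-1, and the hairpin 6 change from −0.06 in THP-1 to 0.34 in MOLM-14.

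**Figure D4:**
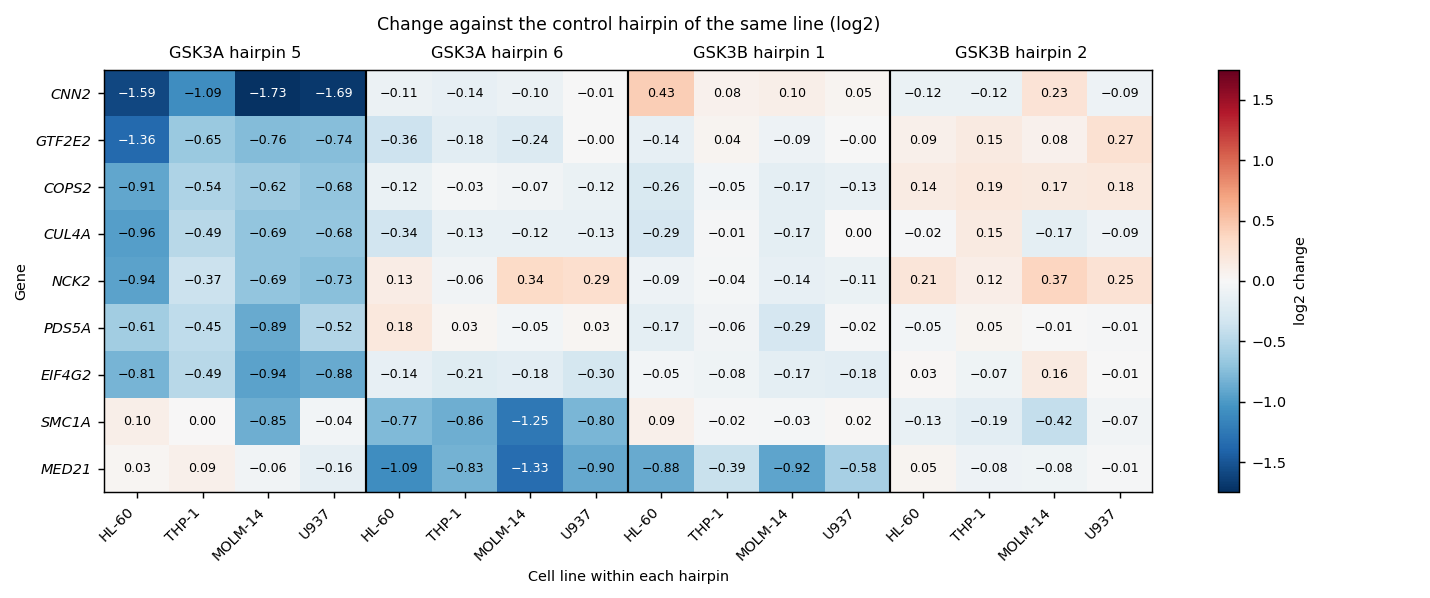
Log2 change of the 9 genes (rows) against the control hairpin of the same line, for the 4 hairpins and 4 lines (columns), with blue for lower and red for higher. The hairpin 5 block is blue for the first 7 genes in all lines, SMC1A with hairpin 5 is low only in MOLM-14 (−0.85), and MED21 is low under GSK3A hairpin 6 and GSK3B hairpin 1.

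The level in control cells differed between lines for 8 of the 9 genes (moderated F-test, adjusted p under 0.05), as it did for 67.8% of all genes, and each line filled its own plate row, so line and row cannot be told apart. EIF4G2 was the exception (adjusted p = 0.0798), with HL-60 at 2923 ± 30.4, THP-1 at 2655 ± 167, MOLM-14 at 2581 ± 245 and U937 at 2323 ± 372 (SD, n = 3 each). COPS2 was highest in U937 at 1617 ± 99.4, THP-1 (998 ± 76.03) and MOLM-14 (953 ± 27.4) did not differ beyond 2 standard errors, and HL-60 was lowest at 649 ± 23.95. NCK2 had 4 separate levels, 709 ± 25.6 in THP-1, 432 ± 14.4 in HL-60, 372 ± 18.2 in U937 and 269.7 ± 12.6 in MOLM-14. MED21 was alike in U937 (201 ± 21.6) and HL-60 (196 ± 7.98), lower in THP-1 (146 ± 7.02) and lowest in MOLM-14 (109 ± 14.8). For CNN2, no neighbours in the order THP-1 (263), HL-60 (232), MOLM-14 (206) and U937 (191) differed beyond 2 standard errors. CUL4A ran in the order U937 (711), MOLM-14 (421), HL-60 (371) and THP-1 (298), each step beyond 2 standard errors. PDS5A was highest in U937 (744) and HL-60 (568), with THP-1 (465) and MOLM-14 (460) alike. GTF2E2 was lowest in THP-1 (175), and SMC1A highest in U937 (1292).

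The second brightest probe sets of CUL4A, PDS5A, COPS2 and MED21 gave the same sign as the brightest, with the hairpin that lowered the gene more. The dimmer of the 2 CUL4A probe sets gave −0.58 with hairpin 5 and −0.08 with hairpin 6. The second brightest PDS5A probe set gave −0.40 with hairpin 5 and 0.03 with hairpin 6. Another 4 dimmer probe sets, with mean intensities of 8.32 to 69.1, gave −0.03 to −0.01 with hairpin 5. The brightest of these 4 gave −0.11 with hairpin 6. With hairpin 5 it ran from 56.3% of control in MOLM-14 to 120% in HL-60, below every control array in 1 line and above in 2. The dimmer COPS2 probe set gave −0.40 with hairpin 5 and −0.20 with hairpin 6, a smaller gap between the hairpins than on the brighter probe set. The dim second probe sets of EIF4G2 (mean 6.73) and SMC1A (mean 13.8) stayed near 0, at −0.01 with hairpin 5 and −0.10 with hairpin 6. Values above are from the brightest probe set of each gene. CNN2, GTF2E2 and NCK2 have a single probe set that names them alone, so no other probe set was there to check their falls. Whether the CNN2 probe set also measures other transcripts was not tested.

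Over the 20 group means, each centred on its line, the 7 genes lowered more by hairpin 5 ran together, with a median pairwise correlation of 0.90 (0.83 to 0.96 over 21 pairs). The choice of the genes fixes most of this, since the hairpin 5 groups set them all apart. SMC1A and MED21 correlated at 0.59. By the same measure, the profiles most like the mean of the 7 were those of SNAPC1 (0.98), PREB, MTDH, EFR3A and EBAG9 (0.97 each), which changed by −0.48 (MTDH) to −0.98 (EFR3A) with hairpin 5 and by 0.00 to 0.14 with hairpin 6. The profiles most like SMC1A and MED21 were those of PIAS2 (0.95), ME2, GEMIN2, XPO7 and NCAPD3 (0.93), which changed by −0.32 (XPO7) to −0.97 (NCAPD3) with hairpin 6.

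Other genes of the same complexes and pathways moved in both directions. Over 9 lists of related genes, 179 of 211 were measured, and 19 were higher and 23 lower with hairpin 5, with 21 higher and 24 lower with hairpin 6. The shares that passed, 23.5% with hairpin 5 and 25.1% with hairpin 6, stand beside 22.1% and 16.7% over all genes. By list they ran from 6.25% (general transcription factors) to 37.5% (COP9 signalosome) with hairpin 5 and from 0% (general transcription factors) to 51.9% (NCK partners) with hairpin 6. Between these lay cullin-RING ligases (21.2% with hairpin 5 and 33.3% with hairpin 6), translation initiation factors (24.2% and 18.2%) and actin-binding genes (26.9% and 19.2%). The COP9 signalosome had 25% with hairpin 6. Medians of the lists below stand beside medians over all genes of −0.0017 with hairpin 5 and 0.0011 with hairpin 6. With GSK3B hairpin 1, 6 were higher and 5 lower, or 6.15% beside 4.64% of all genes, and with GSK3B hairpin 2, 7 were higher and 10 lower, or 9.5% beside 6.27%.

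In the COP9 signalosome, the partners of COPS2 moved both ways. With hairpin 5, 2 of 8 rose and 1 fell (median 0.04), and with hairpin 6, 1 rose and 1 fell (median −0.03). COPS7A rose with hairpin 5 (0.21 ± 0.04, adjusted p = 0.00016) and with hairpin 6 (0.19 ± 0.04, adjusted p = 0.000563). COPS4 rose with hairpin 5 (0.12) and fell with hairpin 6 (−0.21), and GPS1 fell with hairpin 5 (−0.17). In the list of cullin-RING ligases and neddylation, 2 of 33 rose and 5 fell with hairpin 5 (median −0.02), and 5 rose and 6 fell with hairpin 6 (median −0.0046). DTL, a substrate receptor that works with CUL4A, fell with hairpin 5 (−0.50 ± 0.09, adjusted p = 0.000102) and with hairpin 6 (−0.39 ± 0.09, adjusted p = 0.00235). CUL1 fell with hairpin 5 (−0.24), RNF7 rose with hairpin 5 (0.28), and RBX1, the RING subunit that brings in the ubiquitin-loaded enzyme, fell with hairpin 6 (−0.41 ± 0.06, adjusted p = 3.62e-06). With hairpin 6, NAE1 of the NEDD8-activating enzyme also fell (−0.18), and DCUN1D1 (0.21) and DCAF16 (0.23) rose.

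In the cohesin list, 2 of 12 fell with hairpin 5 (median −0.09), and 1 rose and 2 fell with hairpin 6 (median −0.0047). These shares of 16.7% and 25% stand beside 22.1% and 16.7% of all genes. NIPBL, the loader of cohesin, fell with hairpin 5 (−0.41 ± 0.09, adjusted p = 0.000648) and not with hairpin 6 (0.06, adjusted p = 0.749), and WAPL, the releasing factor, fell with hairpin 5 (−0.11). STAG2 (−0.18) and CTCF (−0.16) fell with hairpin 6 while STAG1 rose (0.22). The WAPL and CTCF calls were marginal (limma, adjusted p = 0.0483 each). With 1 array left out at a time they were lost in 30 and 32 of 44 fits, and each was lost in 8 of 16 alternatives. Of 24 other Mediator genes, 2 rose and 3 fell with hairpin 5 (median −0.04) and 1 rose and 3 fell with hairpin 6 (median 0.0080). That is 20.8% with hairpin 5, beside 22.1% of all genes, and 16.7% with hairpin 6, beside 16.7%. MED1 fell with both hairpins (−0.30 and −0.24), as did CCNC (−0.19 and −0.22), while CDK19 rose with both (0.23 and 0.44), and MED8 rose with hairpin 5 (0.36). With GSK3B hairpin 1, which lowered MED21, 0 of the 24 passed the test in limma, beside 4.64% of all genes. Of the 24, 3 had an unadjusted p under 0.05, all higher, and the values of the 24 ran from −0.07 to 0.15. Among 16 general transcription factor genes, CDK7 (−0.12) was the 1 that passed with hairpin 5 (median −0.05). With hairpin 6, 0 of the 16 passed in limma and 1 had an unadjusted p under 0.05 (median −0.0093). GTF2E1, the alpha partner of GTF2E2 in TFIIE, changed by −0.02 with hairpin 5 and 0.07 with hairpin 6.

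In the list of translation initiation factors, 1 of 33 rose and 7 fell with hairpin 5 (median −0.06), and 2 rose and 4 fell with hairpin 6 (median −0.0074). EIF5B, the GTPase of subunit joining, fell with hairpin 5 (−0.58 ± 0.05, adjusted p = 1.4e-09), and PAIP1 fell with hairpin 5 (−0.38) and rose with hairpin 6 (0.15). EIF2S1 (−0.45) and EIF3B (−0.35) fell more with hairpin 6 than with hairpin 5 (−0.18 and −0.20), and MKNK1 rose with hairpin 5 (0.15). EIF4EBP2 rose with hairpin 6 (0.12). Of 26 actin-binding genes, 7 rose with hairpin 5 (median 0.06), and 1 was lower at an unadjusted p under 0.05 without passing the test, while 1 rose and 4 fell with hairpin 6 (median 0.0069). CAPG (0.42 ± 0.04, adjusted p = 2.1e-08) and CORO1A (0.33) rose with hairpin 5, opposite in sign to CNN2, GSN rose with hairpin 5 (0.30) and hairpin 6 (0.42), and TPM4 (−0.61) and TAGLN2 (−0.23) fell with hairpin 6. Of 27 NCK partners, 5 rose and 4 fell with hairpin 5 (median 0.06) and 10 rose and 4 fell with hairpin 6 (median 0.10). That is 33.3% with hairpin 5, beside 22.1% of all genes, and 51.9% with hairpin 6, beside 16.7%. The list was written with earlier results of these data known, so nothing is read from the larger shares. CDC42, a GTPase that drives actin assembly, fell with hairpin 5 (−0.76 ± 0.05, adjusted p = 2.8e-11) and rose with hairpin 6 (0.28), the same order of signs as NCK2. LIMS1 had it too (−0.27 and 0.15), whereas RAC1 rose with both (0.24 and 0.35), as did WAS (0.21 and 0.20). PAK2 fell with hairpin 6 (−0.41), and ARPC3 rose with it (0.22). WAS rests on its brighter probe set, since the other gave −0.01 with hairpin 5. Other named genes also shrank in some of the 16 alternatives without a turn of sign. The smallest changes were 0.07 (GSN) and −0.08 (PAK2) with hairpin 6, and −0.11 (DTL) and −0.16 (NIPBL) with hairpin 5.

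A last list held relatives or partner subunits of the 9 genes, with 8 measured of 10 listed. With hairpin 5, 1 rose and 1 fell (25%, beside 22.1% of all genes). With hairpin 6, 1 fell (12.5%, beside 16.7%). CUL4B rose with hairpin 5 (0.19 ± 0.04, limma, adjusted p = 0.00137), opposite in sign to CUL4A. NCK1 fell with hairpin 5 (−0.16 ± 0.03, adjusted p = 0.00108) and with hairpin 6 (−0.26 ± 0.03, adjusted p = 3.8e-06), whereas NCK2 was above control with hairpin 6. CNN1, CNN3, GTF2E1, PDS5B, EIF4G1 and SMC3 passed neither GSK3A test, with values from −0.15 (PDS5B, hairpin 6) to 0.07 (GTF2E1, hairpin 6).

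**Figure D5:**
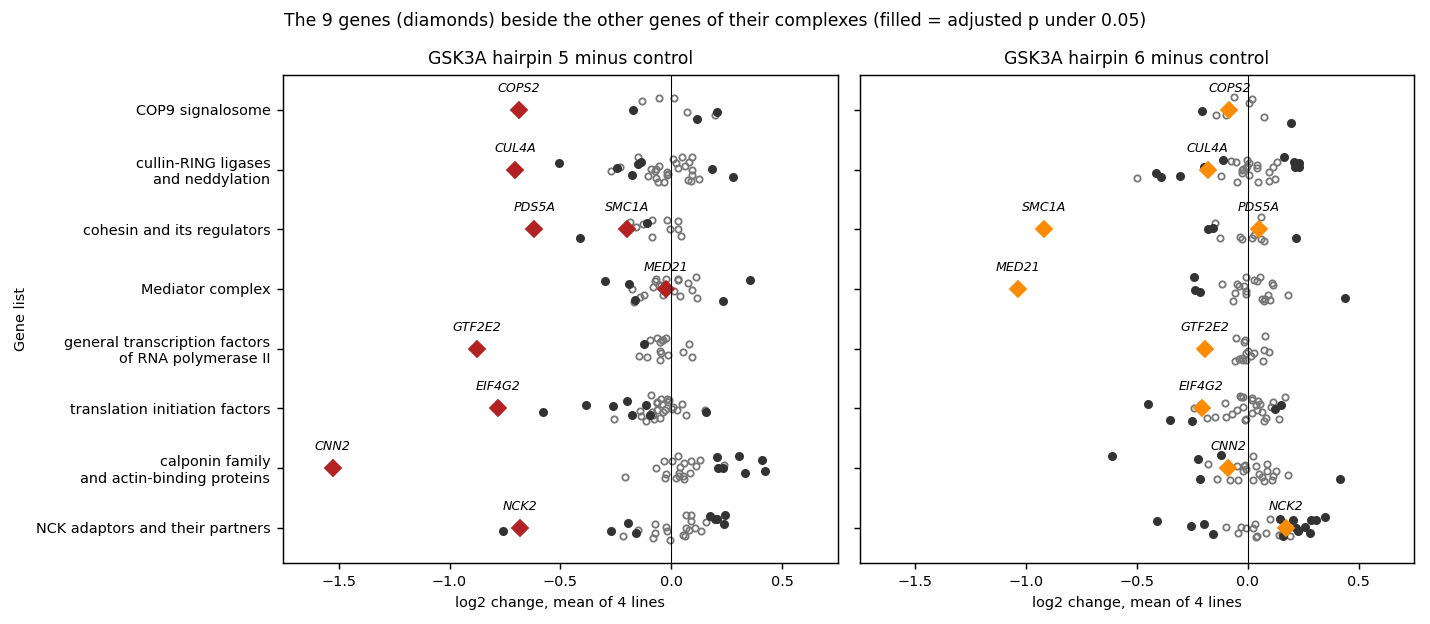
Log2 change with GSK3A hairpin 5 (left) and GSK3A hairpin 6 (right) against control, mean of 4 lines, for the 9 genes (diamonds) and the other genes of 8 lists (circles; filled, adjusted p under 0.05). With hairpin 5, CNN2 stands at −1.53 while the other actin-binding genes lie between −0.21 and 0.42, and with hairpin 6 MED21 stands at −1.03 while the other Mediator genes lie between −0.24 and 0.44.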

How the data were processed

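RNA of the 44 samples was hybridized to Affymetrix high-throughput human arrays. The deposited values are linear intensity summaries of 22277 probe sets, normalized by the authors before deposit. The submitters' processing notes name RMA and MAS5, with neither versions nor the step each served. Deposited intensity spanned 3.40 to 12933, with array medians of 18.95 to 22.9, and precision is limited by the number of arrays.

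Values became log2(intensity + 16). As array medians spanned 0.154 (log2; limit 0.1), arrays were quantile-normalized. Of the probe sets, 19724 had 1 symbol, 568 several and 1923 none, and the brightest per gene gave 12165 genes. Limma 3.58.1 (R 4.3.3) fitted the 20 group means with 24 residual degrees of freedom and was tested on simulated data. P-values are two-sided and Benjamini-Hochberg adjusted over all genes, threshold 0.05. Differences between lines used a moderated F-test.

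The members and lists were chosen with earlier results of these data known. Named genes are the 9, both targets, paralogs, up to 2 rising and 2 falling genes per list and GSK3A hairpin by smallest adjusted p, the 5 most similar profiles per hairpin, and the 5 most extreme hairpin differences of each sign. The lists are the COP9 signalosome, cullin-RING ligases and neddylation, cohesin, Mediator, general transcription factors, translation initiation factors, actin-binding proteins, NCK partners and paralogs.

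Alternatives were other scalings, pseudocounts 1 and 64, a filter on dim genes, other probe sets, blocks by replicate number and plate columns, plate columns 1 to 6 and 7 to 11 alone, and leaving out each line or array. All data columns matched a labelled sample.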

Additional observations from a re-analysis of the deposited data

Results flagged for a closer look

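Each of the 9 genes was looked at with each of the 4 hairpins. For 5 combinations of gene and hairpin, both hairpin arrays lay below every control array in one line and above every control array in another. The difference between these lines was not tested. The share of all genes with such a pattern was not counted, so nothing is read from the number of combinations. CNN2 with GSK3B hairpin 2 was at 91.1% of control in THP-1 and 118% in MOLM-14. CUL4A with GSK3B hairpin 2 was at 86.7% in MOLM-14 and 111% in THP-1. NCK2 with GSK3A hairpin 6 was at 95.5% in THP-1 and 110% (HL-60) to 126% (MOLM-14) in the other lines. PDS5A with GSK3A hairpin 6 was at 94.1% in MOLM-14 and 113% in HL-60, and SMC1A with GSK3A hairpin 5 at 54.7% in MOLM-14 and 107% in HL-60. Each group holds 2 hairpin arrays and 3 control arrays, and the GSK3A arrays are those on which the genes were chosen.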

How the results depend on the processing

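Counts of genes past the test are given here by setting, beside the values as reported: 2691 for GSK3A hairpin 5, 2029 for GSK3A hairpin 6, 2043 for hairpin 5 against 6, 564 for GSK3B hairpin 1, 763 for GSK3B hairpin 2, 1337 between the GSK3B hairpins, 1102 and 381 for the line differences of the hairpin 5 and hairpin 6 changes, 8244 for the control level, and 42 and 45 genes of the lists with hairpins 5 and 6. With a replicate block the counts were 3073 (GSK3A hairpin 6), 1107 and 1610 (GSK3B hairpins 1 and 2), 2192 (between them), and 2566 and 1342 (line differences). The replicate numbers do not pair the samples: same-numbered samples of HL-60 and THP-1 correlated at −0.09 to 0.15. Control replicate 2 of MOLM-14 and U937 went against its number (down to −0.59 and −0.71), although replicate 1 samples of these lines correlated at 0.46 to 0.80. Control replicate 2 lay in plate columns 1 to 6 with the replicate 1 samples, while the other replicate 2 samples lay in columns 7 to 11. With plate columns as a block the counts were 4064, 3522, 3573, 1572, 1940, 2737, 3157 and 2011 for the first 8 results in the order above, and 85 and 71 for the lists. Plate columns 1 to 6 alone gave 1217 and 1259 (GSK3B hairpins), 2251 and 1145 (line differences) and 72 (lists, hairpin 5). Plate columns 7 to 11 alone, with 1 array a group, gave 592, 438, 833, 17, 85 and 301 for the first 6, and 9 and 13 for the lists. Without HL-60 the counts were 1706, 1243, 1254, 121, 328, 503, 530 and 195 for the first 8 and 21 for the lists with hairpin 5. Line differences gave 508 and 109 without THP-1 and 1843 and 745 without U937, and the second brightest probe set gave 247 for hairpin 6. The cause of these shifts was not tested beyond the fewer samples of the subsets.

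Among values past the test, or for GSK3A hairpin changes of the 9 genes beyond the replicate SD, signs turned in 5 cases: on the second brightest probe set, COPS2 with GSK3B hairpin 2 (−0.34) and between the GSK3B hairpins (−0.23), SMC1A between the GSK3B hairpins (0.051) and WAS with GSK3A hairpin 5 (−0.015), and SMC1A with GSK3A hairpin 5 without MOLM-14 (0.020). Another 65 values that met neither bar turned sign, such as EIF4G2 with GSK3B hairpin 1 on its dim second probe set (0.027). The cause was not tested. Leaving out 1 array at a time kept counts within 2342 to 2889 (GSK3A hairpin 5), 1703 to 2323 (hairpin 6), 406 to 633 (GSK3B hairpin 1) and 548 to 935 (GSK3B hairpin 2). The CNN2 call with GSK3B hairpin 1 was lost in 8 of 44 such fits, NCK2 with GSK3B hairpin 1 in 13 and GTF2E2 with GSK3B hairpin 2 in 9. The MED21 change with GSK3B hairpin 1 ran from −0.80 to −0.51 over 16 alternatives (adjusted p up to 0.0224). Pseudocounts of 1 and 64 moved the CNN2 fall with hairpin 5 to −1.74 and −1.12. EIF4G2 passed between the GSK3B hairpins with a replicate block (adjusted p = 0.0287), with plate columns as a block (0.00129) and in columns 1 to 6 alone (0.0321). CUL4A passed there without U937 (0.0322).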
